A study of Mus musculus with 6 samples.

Results

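The mitochondrial ribosomal protein genes are the nuclear genes named *Mrpl* or *Mrps* followed by a number. They were chosen by these names among the non-control probes of 6 mouse arrays, and each gene was read by its brightest probe. The arrays carry 76 such genes, 47 named for the large and 29 for the small subunit, of 36163 gene names in all. Of the 76, 75 were tested and 73 of these were lower in PC B1a cells of *p40-/-CD25-/-* mice than in those of *p40-/-CD25+/-* mice, as were 60.2% of all tested genes. The differences were small, with a median of -0.26 on the log2 scale against -0.12 over all tested genes and -0.24 over genes of like signal, and no single gene passed the test after adjustment. With quantile normalization the median of the members was -0.09. Both exceptions were small subunit genes, *Mrps10* and *Mrps34*.

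The mitochondrial ribosome translates the few messages of mitochondrial DNA, all of which encode subunits of the respiratory chain and of ATP synthase. Its RNA comes from mitochondrial DNA, whereas every one of its proteins is encoded in the nucleus, made in the cytoplasm and imported. The large subunit joins amino acids and feeds the new chain through its exit tunnel to the inner membrane, and the small subunit binds the message and decodes it. B1a cells are self-renewing B cells of the peritoneal cavity (PC) that carry CD5 and CD11b.

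The samples were total RNA of B1a cells sorted from the PC of female C57Bl/6 mice aged 7 weeks. The 3 knockout samples came from *p40-/-CD25-/-* mice and the 3 control samples from *p40-/-CD25+/-* mice, each sample made from at least 3 mice by the design text. CD25 is IL-2Rα, encoded by *Il2ra*, and p40 is the shared subunit of IL-12 and IL-23, encoded by *Il12b*. Both groups thus lacked p40, and the controls kept 1 intact copy of *Il2ra*. The alleles are germline, so every cell type of the mouse carries them, and *p40-/-CD25-/-* mice develop autoimmune cholangitis.

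Values below are log2 of the processed spot intensity minus the 75th percentile of the array. The probes have unknown and unequal efficiency, so values are compared between arrays and not between genes. All 6 arrays lay on 1 slide and were scanned on 1 day. Signal was weaker on the knockout arrays, whose 75th percentile lay between 66.5 and 162 intensity units, against 252 to 272 on the control arrays. Between 39.7% and 45.9% of their spots were well above background, against 47.2% to 50.6% on the control arrays. *Il2ra* read 1.62, 1.13 and 1.35 on the control and -0.31, -0.59 and 0.86 on the knockout arrays, so that knockout 3 lay much nearer to the controls than the others did. It was 1.38 lower in knockout samples (standard error 0.37, limma adjusted p = 0.121), and the probes of *Il2ra* and *Il12b* were well above background on all 6 arrays, so neither deletion shows as a missing signal. The B cell and B1a markers *Cd79a*, *Cd79b*, *Ms4a1*, *Cd5*, *Itgam*, *Bhlhe41*, *Cd9*, *Ptpn22*, *Spn* and *Zbtb32* were well above background on all 6 arrays. Precision is limited by this number of arrays, since an exact permutation test of 3 against 3 cannot give a p under 0.1.

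The promoters of 4 genes are shown, those of the 3 largest decreases without overlap between genotypes and that of *Mrps10*, the one gene that lay above the control arrays on every knockout array. They are RefSeq sequences of GRCm38.p6, from 250 bases before to 50 after the gene start and on the strand of the gene. *Mrpl37* lies at chr4:107066817-107067116 on the minus strand, *Mrpl22* at chr11:58171414-58171713 on the plus strand, *Mrpl40* at chr16:18876588-18876887 on the minus strand and *Mrps10* at chr17:47368947-47369246 on the plus strand. Capitals mark matches, on either strand, to the ETS core CCGGAAG, the NRF1 core GCATGCGC, the YY1 core AAGATGGC, the E-box CACGTG and the Sp1 GC box GGGCGG.
Mrpl37: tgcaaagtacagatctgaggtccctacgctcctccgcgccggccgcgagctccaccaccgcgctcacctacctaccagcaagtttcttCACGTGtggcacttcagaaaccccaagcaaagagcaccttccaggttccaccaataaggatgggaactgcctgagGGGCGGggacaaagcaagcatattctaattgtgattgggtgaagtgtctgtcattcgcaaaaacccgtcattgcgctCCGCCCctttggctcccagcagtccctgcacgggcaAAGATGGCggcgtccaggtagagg
Mrpl22: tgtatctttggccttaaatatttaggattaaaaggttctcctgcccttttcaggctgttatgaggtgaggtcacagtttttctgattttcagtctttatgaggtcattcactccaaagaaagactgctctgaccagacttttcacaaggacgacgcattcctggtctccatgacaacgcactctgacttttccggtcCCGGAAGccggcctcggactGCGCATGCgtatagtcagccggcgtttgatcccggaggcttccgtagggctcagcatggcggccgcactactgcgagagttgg
Mrpl40: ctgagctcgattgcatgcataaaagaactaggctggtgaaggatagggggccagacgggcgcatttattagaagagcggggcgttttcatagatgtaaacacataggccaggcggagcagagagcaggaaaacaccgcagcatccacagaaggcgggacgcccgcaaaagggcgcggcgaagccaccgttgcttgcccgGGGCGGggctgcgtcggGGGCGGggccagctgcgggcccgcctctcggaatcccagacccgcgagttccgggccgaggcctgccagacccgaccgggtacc
Mrps10: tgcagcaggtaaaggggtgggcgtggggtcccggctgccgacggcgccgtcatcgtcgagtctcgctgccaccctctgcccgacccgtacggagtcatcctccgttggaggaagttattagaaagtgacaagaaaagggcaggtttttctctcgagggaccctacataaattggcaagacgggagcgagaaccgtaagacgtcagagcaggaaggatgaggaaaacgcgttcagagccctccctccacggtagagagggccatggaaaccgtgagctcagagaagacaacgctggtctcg
*Mrpl22* held an ETS and an NRF1 core, *Mrpl37* a YY1 core, an E-box and GC boxes, *Mrpl40* GC boxes, and *Mrps10* none of these letters in this window.

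Promoters were found for 66 of the 75 tested genes. The ETS core, bound by factors such as GABP, stood in 22 of the 66 (33.3%) and in 9.12% of the promoters of all 27025 symbols. The YY1 core stood in 12 of the 66 (18.2%), against 2.88% of all, and the NRF1 core in 8 (12.1%), against 2.8%. The E-box, which MYC can bind, was about as common in the 66 (7.58%) as in all promoters (7.24%), and the GC box stood in 50% against 35.9%. No motif of the 5 contains another. Genes with and without a motif had like differences on the arrays. The median log2 difference was -0.28 for the 22 genes with the ETS core and -0.28 for the 44 without, and -0.32 for the 8 with the NRF1 core against -0.27 for the other 58. With the YY1 core it was -0.29, and without it -0.28. For 24 of the 66 genes (36.4%) a gene on the other strand started within 1000 bases upstream, against 11.4% of all symbols; *Mrpl46* and *Mrps11* start 42 bases apart and are such neighbours of each other.

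**Figure D1:**
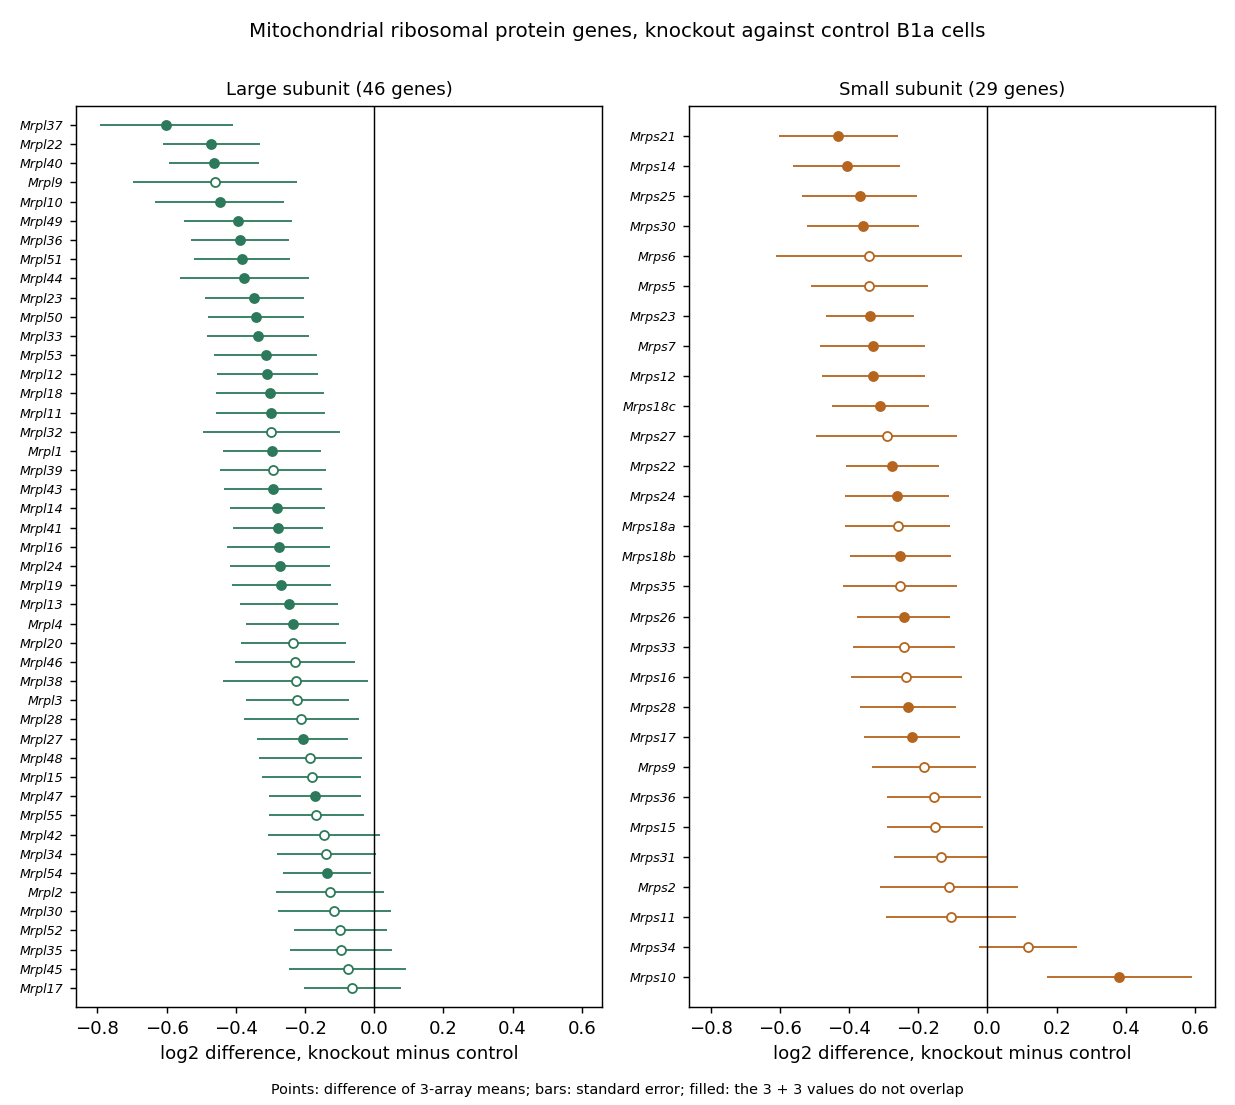
Log2 difference, knockout minus control, of the 75 tested mitochondrial ribosomal protein genes (points, difference of the 3-array means; bars, standard error from limma), by subunit name. Filled points mark the 42 genes whose 3 knockout and 3 control values do not overlap, and *Mrps10* and *Mrps34* alone lie to the right of 0.

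The question of the comparison was how B1a cells of the cholangitis mice differ from those of mice with 1 intact copy of *Il2ra*. Of the 75 tested genes, 73 (97.3%) were lower on average in knockout samples, while 60.2% of the 18235 tested genes were. In the 1-unit bins of mean signal from 2 to 6, which hold most members, between 79.4% and 81.6% of all genes were lower. The 3 knockout values lay all below the 3 control values for 41 members (54.7%), against 21.6% of all tested genes, and all above for 1 member, against 14.7%. The median log2 difference was -0.26, with an interquartile range of -0.33 to -0.18, and the median of all tested genes was -0.12. The members also lay close together, with an SD of 0.14 between genes where all tested genes had 0.48. Subunits of oxidative phosphorylation were as close, at 0.13, and so were genes of mitochondrial DNA maintenance and transcription, at 0.12. Wider SDs were those of ribosome assembly factors (0.20), translation factors (0.33) and mitochondrial aminoacyl-tRNA synthetases (0.38).

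None of these differences passed the tests for single genes. The smallest limma adjusted p among the members was 0.123, for *Mrpl40*, and 7 of all genes (0.0384%) had an adjusted p under 0.05. The study asked for at least 2-fold and an unadjusted p no higher than 0.05, which 3.52% of all genes and 0 members met. An unadjusted p under 0.05 was found for 12 members, all of them lower, which is 16% against 13.6% of all genes in that direction. None was higher with such a p, against 11.6% of all genes, so that in either direction the members' 16% lay below the 25.2% of all genes. The count of members in either direction was 19 without knockout 3 (25.3% of members against 30.005% of all genes) and 7 without knockout 2 (9.33% against 21.5%). It was 2 without control 3 (2.67% against 13.5%) and 5 without any 1 of the other 3 arrays (6.67% against 17.7% to 20.6%). Under other scalings it lay between 3 (4% against 23.7%) and 59 (78.7% against 51.0%). *Mrps10* and *Mrps34* were higher with such a p with quantile normalization, with or without normexp, and in the deposited values, and *Mrps10* also without knockout 3. The largest change, that of *Mrpl37*, was 1.52-fold.

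The level of these genes differed between arrays of 1 genotype as well. The median of the 75 values, each taken relative to the control mean of its gene, was 0.01, -0.04 and 0.05 for control 1, 2 and 3. On knockout 1, 2 and 3 it was -0.26, -0.35 and -0.16. All 3 knockout medians were below all control medians, with knockout 2, the dimmest array, the lowest and knockout 3, the brightest knockout array, nearest to the controls. Knockout 3 was also the knockout array on which *Il2ra* read highest. Of the 75 genes, 44 had their lowest knockout value on knockout 2 and 54 their highest on knockout 3. The same ordering held over all tested genes, whose medians were -0.09, -0.17 and -0.06 on knockout 1, 2 and 3. The part of array brightness in the difference was not tested apart from the scalings below.

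**Figure D2:**
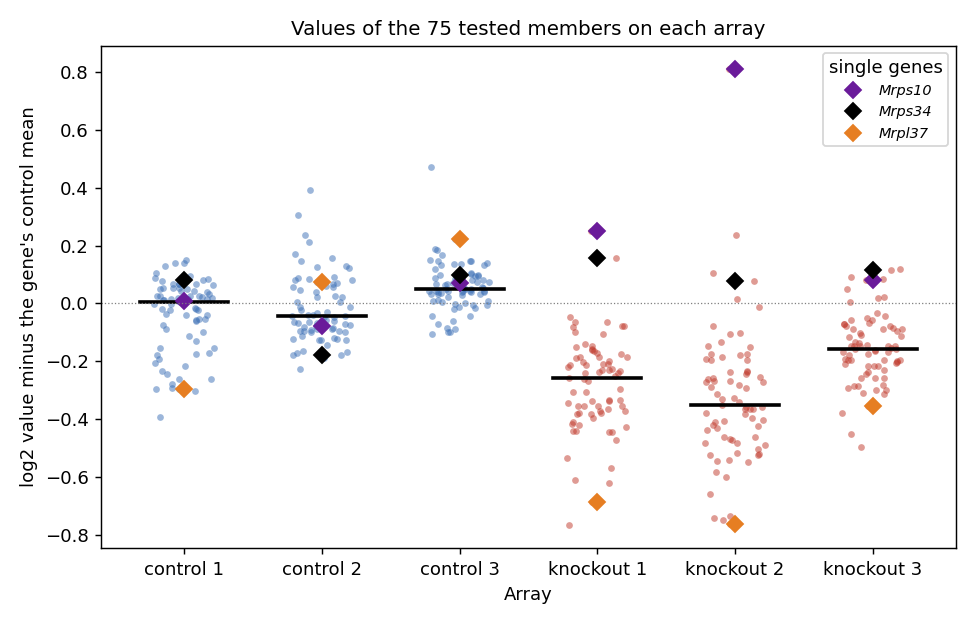
Values of the 75 tested genes on each array (log2, relative to the mean of the gene on the control arrays); each dot is 1 gene, black lines are medians and diamonds single genes. The knockout medians lie at -0.26, -0.35 and -0.16, and *Mrps10* is highest on knockout 2.

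The difference was not the same size under every scaling. With quantile normalization, which forces the 6 arrays to 1 distribution, the median was -0.09 and 59 of 75 members were lower, beside a median of -0.07 over all tested genes. The deposited log2 values gave -0.11 with 62 lower, and scaling on probes detected on all arrays -0.17 with 71 lower. With normexp background correction before the 75th percentile it was -0.52 with 73 lower. Under that setting 41 members (54.7%) had a limma adjusted p under 0.05, and so had 35.5% of all tested genes. The share of members with all knockout values below all control values also depended on the scaling. It was 17.3% with quantile normalization, against 16.8% of all tested genes, and 17.3% in the deposited values, against 17.7%, so it did not stand above the background there. Scaled on detected probes it was 32%, against 15.2%, and with normexp and the 75th percentile 81.3%, against 29.8%. The median stayed below 0 under these scalings while its size depended on them.

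**Figure D3:**
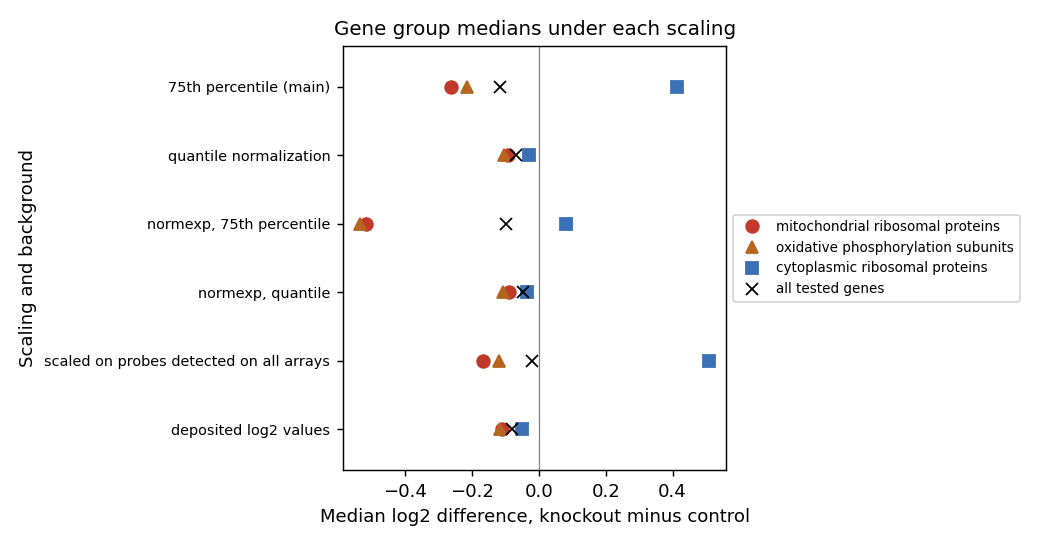
Median log2 difference, knockout minus control, of 4 gene groups under 6 combinations of scaling and background correction. The members lie between -0.52 and -0.09, and cytoplasmic ribosomal proteins change side, from 0.41 to -0.03 with quantile normalization.

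Over all genes the difference varied with probe signal. The members' mean signal had a median of 3.19 on the log2 scale, against 0.84 over all tested genes, so their probes were brighter than most. The 3877 other genes whose mean signal lay in the members' interquartile range, 2.15 to 4.41, had a median difference of -0.24, and 37.6% of them had all knockout values below all control values. In the same range stood 37 members, with a median of -0.28 and 23 without overlap on the lower side. Genes of like signal thus had nearly the same median as the members, while their SD between genes was wider, at 0.34. Throughout, genes of like signal means this range of 2.15 to 4.41, and some members and list genes lie outside it. In the dimmest bin that held members, from -1 to 0, the 3 members had a median of -0.29 and all 1956 genes there one of 0.00.

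**Figure D4:**
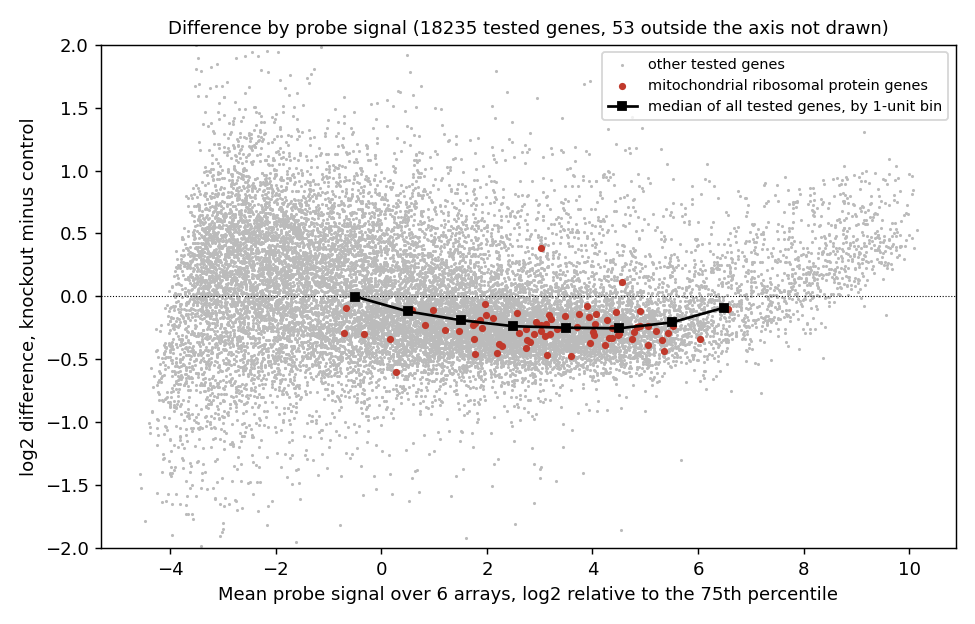
Log2 difference, knockout minus control, against the mean log2 signal over 6 arrays for the tested genes (grey), with mitochondrial ribosomal protein genes in red and the median of all tested genes per 1-unit bin in black. Most members lie near the black line, which is at -0.25 between 4 and 5; 53 genes lie outside the axis.

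Within the large subunit all 46 tested genes were lower, 27 of them (58.7%) without overlap, with a median of -0.27. Among the 29 genes named for the small subunit 27 were lower, 14 of them (48.3%) without overlap, with a median of -0.25. Of all tested genes 21.6% lay below without overlap, and of genes of like signal 37.6%. The SD between genes was 0.12 in the large and 0.16 in the small subunit, and no test of the difference between subunits was made. *Mrpl21* was well above background on no array and was not tested.

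*Mrpl37* encodes a large subunit protein without a bacterial counterpart. Control 1, 2 and 3 read 0.28, 0.65 and 0.80, and knockout 1, 2 and 3 read -0.11, -0.19 and 0.22. The highest knockout value lay just under the lowest control value, and the control values themselves were spread. The log2 difference of -0.60 (standard error 0.19, limma adjusted p = 0.140) was the largest decrease of the family.

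*Mrpl22* encodes a protein that lines the exit tunnel. The control samples read 3.81, 3.85 and 3.82, the knockout samples 3.26, 3.28 and 3.53. The controls lay very close to each other and every knockout array was lower, by 0.47 on average (standard error 0.14, limma adjusted p = 0.131). Its probe lies at 57993002 to 57993061 on chromosome 11 (mm9, the build of the array files), and a second, dimmer *Mrpl22* probe was lower by 0.45. In the exit tunnel and membrane list, which also holds *Mrpl23*, *Mrpl24*, *Mrpl47*, *Mrpl45* and *Mrpl17*, 6 of 6 were lower with a median of -0.22, beside -0.24 for genes of like signal. Only *Mrpl22* and *Mrpl45* of this list lie in the signal range of those genes. All genes had a median of -0.21 in the bin from 5 to 6 and of -0.19 in that from 1 to 2. *Mrpl45*, which ties the ribosome to the inner membrane, and *Mrpl17* at the tunnel exit had small differences of -0.08 and -0.06 with overlapping arrays. Both turned higher under some scalings.

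*Mrpl40* belongs to the central protuberance, the top of the large subunit that touches the small one. Its values were 3.37, 3.33 and 3.42 in control and 2.84, 2.90 and 3.00 in knockout samples. Both groups were tight and did not overlap, which gave a difference of -0.46 (standard error 0.13, limma adjusted p = 0.123). A second *Mrpl40* probe of nearly the same signal differed by -0.36. Of the other genes of that structure, *Mrpl18* differed by -0.30 without overlap, and *Mrpl46* and *Mrpl38* by -0.23 each and *Mrpl55* by -0.17 with overlapping arrays. *Mrpl55* turned to 0.02 with quantile normalization. The 6 genes of the list had a median of -0.23, and 2 (33.3%) were without overlap, against 21.6% of all tested genes and 37.6% of genes of like signal.

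The stalks, which recruit translation factors or release the used tRNA, were lower without overlap in 4 of 4 genes, with a median of -0.30. Of all tested genes 21.6% lay below without overlap. By bin of mean signal that share was 38.3% from 4 to 5, with *Mrpl11* and *Mrpl12*, and 34.4% from 2 to 3, with *Mrpl10*. It was 14.1% from -1 to 0, with *Mrpl1*. *Mrpl10*, which anchors the factor-binding stalk, read 2.34, 2.56 and 2.34 in control and 2.27, 1.67 and 1.97 in knockout samples. Knockout 1 came close to the controls and knockout 2 lay farthest below, for a difference of -0.45 (standard error 0.19, limma adjusted p = 0.194). Its second probe differed by -0.46. *Mrpl12*, the mobile arm of that stalk, differed by -0.31, *Mrpl11* at its base by -0.30, and *Mrpl1* of the other stalk by -0.29.

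The core of the large subunit around the peptidyl transferase centre is formed in part by *Mrpl2*, *Mrpl3*, *Mrpl4*, *Mrpl16* and *Mrpl27*. All 5 were lower and 3 of them (60%) without overlap, against 21.6% of all tested genes and 37.6% of genes of like signal. Their median was -0.22, beside -0.24 for genes of like signal. *Mrpl16* differed by -0.28, *Mrpl3* by -0.22, *Mrpl27* by -0.21 and *Mrpl2* by -0.13. The arrays of *Mrpl2* and *Mrpl3* overlapped, and with quantile normalization *Mrpl2* turned to 0.074 and *Mrpl27* to 0.0041. A second *Mrpl27* probe, dimmer by 0.19 on the log2 scale, differed by -0.38 without overlap. *Mrpl44*, which has an RNase III-like fold, differed by -0.38 without overlap, and *Mrpl39* by -0.29 with overlap.

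*Mrpl49* and *Mrpl36* complete the large subunit genes among the 8 largest decreases without overlap. *Mrpl49* was 2.61, 2.43 and 2.38 on the control and 2.21, 1.87 and 2.17 on the knockout arrays, lower by 0.39, and its second probe differed by -0.38. *Mrpl36* was 4.44, 4.46 and 4.36 on the control and 4.04, 3.88 and 4.18 on the knockout arrays, lower by 0.39. Both had an unadjusted limma p under 0.05 and an adjusted p of 0.184 and 0.164.

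In the small subunit the largest decreases were those of *Mrps21* and *Mrps14*. *Mrps21* was 5.63, 5.41 and 5.70 on the control and 5.14, 4.92 and 5.38 on the knockout arrays, a difference of -0.43 (standard error 0.17, limma adjusted p = 0.185). *Mrps14*, of the head of the subunit, was 3.08, 2.79 and 2.99 against 2.60, 2.37 and 2.67, a difference of -0.41 (standard error 0.16, limma adjusted p = 0.175). The groups did not overlap in either gene. The second *Mrps14* probe, dimmer by 4.09 on the log2 scale, differed by only -0.01.

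Of 6 further small subunit genes named by role, none had an unadjusted limma p under 0.05. *Mrps12*, at the decoding centre, differed by -0.33 without overlap, and *Mrps5* by -0.34 with control 1 among the knockout values. *Mrps7*, at the site of the outgoing tRNA, differed by -0.33 and *Mrps24* by -0.26, both without overlap. *Mrps28* differed by -0.23 without overlap and *Mrps16* by -0.23 with overlap.

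*Mrps22*, *Mrps16*, *Mrps7*, *Mrps34*, *Mrpl3*, *Mrpl12* and *Mrpl44* are among the genes whose loss in people impairs mitochondrial translation. Of the 9 genes listed for that reason, 8 were lower, 5 of them without overlap, with a median of -0.28. Of all tested genes 60.2% were lower and 21.6% below without overlap, and of genes of like signal 37.6% were below without overlap. In the 1-unit bins of mean signal from 2 to 6 between 79.4% and 81.6% of all genes were lower. *Mrps22* was 1.61 ± 0.10 in control and 1.34 ± 0.06 in knockout samples (SD, n = 3 each) without overlap, a difference of -0.28 (limma adjusted p = 0.236). *Mrps34* was the exception.

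Some genes carry a small subunit name although their proteins sit elsewhere. *Mrps30* and *Mrps18a* encode proteins found in the large subunit, and *Mrps36* a protein since assigned to the 2-oxoglutarate dehydrogenase complex. They differed by -0.36, -0.26 and -0.16, the first without overlap, and *Mrps36* turned to 0.041 with quantile normalization. A second *Mrps36* probe, dimmer by 0.48 on the log2 scale, differed by -0.44 without overlap. *Mrps18b* and *Mrps18c*, the other paralogues of *Mrps18a*, differed by -0.25 and -0.31 without overlap. *Mrps27*, which has pentatricopeptide repeats that bind RNA, differed by -0.29 with overlap.

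*Mrps10*, of the head of the small subunit with a probe on chromosome 17 from 47515561 to 47515620 in mm9, went against the family. Control samples read 2.84, 2.75 and 2.90 and knockout samples 3.08, 3.64 and 2.91. Every knockout array lay above the controls, knockout 3 only barely and knockout 2 by far. The difference was 0.38 (standard error 0.21, limma adjusted p = 0.273), and 0.17 without knockout 2. It was above 0 under all 17 alternatives, from 0.10 with normexp and the 75th percentile to 0.59 with quantile normalization, and never had an adjusted p under 0.05.

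*Mrps34*, a small subunit protein without a bacterial counterpart, was 4.59, 4.33 and 4.61 on the control and 4.67, 4.59 and 4.62 on the knockout arrays. The arrays overlapped at control 1 and control 3, and they differed by 0.12 on the log2 scale (standard error 0.14, limma adjusted p = 0.590). With normexp and the 75th percentile it was -0.22.

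Set against the median of the 75 genes on the same array, which takes out what all members share, 4 genes lay above on all knockout arrays, 4 below, and 67 overlapped. The 4 above were *Mrps10* (0.64 relative to the members), *Mrps34* (0.37), *Mrpl52* (0.16) and *Mrpl47* (0.08). The 4 below were *Mrpl22* (-0.21), *Mrpl40* (-0.21), *Mrpl51* (-0.13) and *Mrpl50* (-0.08). This reading was chosen after the values were seen and has no test. No share over all genes was taken on this scale, so the counts do not show that any of these genes departs from the other members.

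The 3 tested members with the brightest probes were *Mrpl52*, *Mrpl33* and *Mrps16*, and the 3 tested members with the dimmest *Mrps27*, *Mrpl35* and *Mrpl1*. *Mrpl52* differed by -0.10 with overlap and *Mrpl33* by -0.33 without. *Mrpl35* differed by -0.10, one of the 3 smallest differences beside those of *Mrpl45* and *Mrpl17*, and turned to 0.017 with normexp and the 75th percentile.

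Of the 76 genes, 24 had several probes, which gave 25 further tested probes. Of these, 21 were well above background on all 6 arrays and 18 of the 21 had the sign of the brightest probe. *Mrpl41* disagreed most. Its bright probe differed by -0.28 without overlap and its dim one, farther along the transcript, by 0.44, with values of -2.15, -2.23 and -2.51 on the control and -2.25, -1.18 and -2.14 on the knockout arrays. Knockout 2 alone lay apart on that probe. *Mrps25* gave -0.37 and 0.10, and *Mrpl50* -0.34 and 0.02. The 3 *Mrpl47* probes gave -0.17, 0.00 and 0.24, the last not well above background on every knockout array. The disagreeing probes were dimmer than the representing ones by 2.40 to 6.08 on the log2 scale. *Mrpl34*, *Mrps35* and *Mrpl50* were also printed as 10 spots of 1 probe, and the SD between these spots was at most 0.08 on any array, below the standard errors of their differences.

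**Figure D5:**
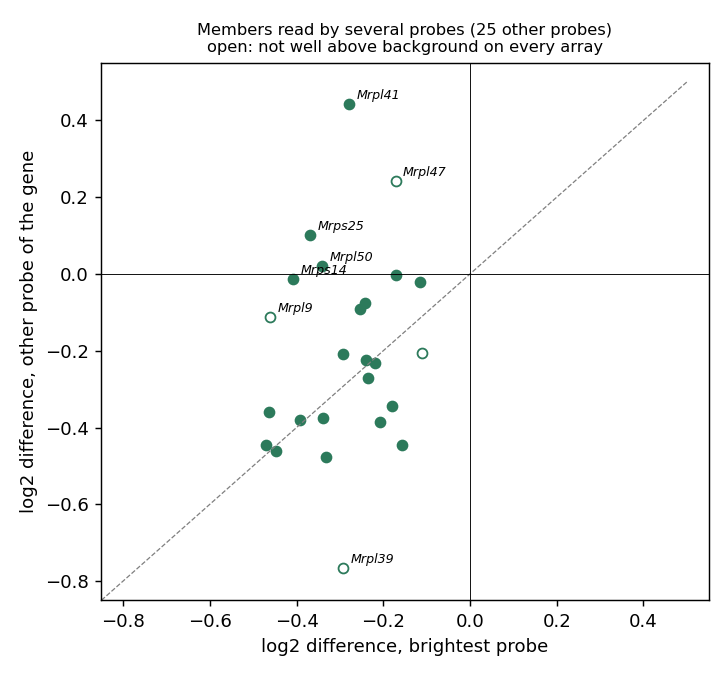
Log2 difference, knockout minus control, of the brightest probe of a gene (horizontal axis) and of each further tested probe of that gene (vertical axis); the dashed line marks equal values. Most of the 25 points lie at or near the lower left, and *Mrpl41*, *Mrpl47*, *Mrps25* and *Mrpl50* lie above 0 on the vertical axis.

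The partners of the mitochondrial ribosome were read from lists of the same pathway, beside the 60.2% of all tested genes that were lower. In the 1-unit bins of mean signal from 2 to 6, where part of these partners lie, between 79.4% and 81.6% of all genes were lower. Of 7 subunits that carry other names, 6 were lower with a median of -0.26, among them *Chchd1* at -0.43 and *Aurkaip1* at -0.36, both without overlap. Among 21 factors of ribosome assembly and rRNA modification 18 were lower with a median of -0.29, such as the pseudouridine synthase-like *Rpusd3* at -0.47 and the methyltransferase *Mrm1* at -0.38. Of 13 translation factors 12 were lower with a median of -0.36, including the elongation factors *Gfm1* (-0.48) and *Tufm* (-0.36), the initiation factor *Mtif3* (-0.54) and the release factor *Mtrf1* (-0.54). *Mtif2*, the other initiation factor, was higher by 0.45 with overlap. Of 18 genes for mitochondrial aminoacyl-tRNA synthetases and amidotransferase 17 were lower with a median of -0.25. The other 1 was higher by 0.36 without overlap, with an unadjusted limma p under 0.05. All 9 of 9 genes of mitochondrial DNA maintenance and transcription were lower with a median of -0.22. None of the genes in these lists had a limma adjusted p under 0.05.

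Factors that act on nuclear mitochondrial genes were not of 1 direction. *Esrra* differed by -0.46, *Yy1* by -0.35 and *Gabpb1* by -0.27, each without overlap, and *Myc* by -0.34 with overlap. *Gabpa*, the DNA-binding subunit of GABP, was above the controls on every knockout array by 0.29, and *Nrf1* differed by -0.04. Of the 7 tested genes of this list 5 were lower and 2 higher, and the smallest limma adjusted p was 0.149.

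Subunits of oxidative phosphorylation, some of whose partners the mitochondrial ribosome makes, had 73 of 75 genes lower, 35 of them (46.7%) without overlap, and a median of -0.21. Below without overlap were 21.6% of all tested genes and, in the 3 bins of mean signal from 3 to 6, between 37.1% and 39.2%. In those bins between 79.4% and 81.6% of all genes were lower. Cytoplasmic ribosomal proteins went the other way under the 75th percentile, with 75 of 76 higher, 71 without overlap against 14.7% of all tested genes, and a median of 0.41. That direction was lost with quantile normalization, where their median was -0.03, and in the deposited values, where it was -0.05, so the opposite signs of both ribosomes hold for only some scalings. No test of the difference between these groups was made.

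Other gene groups differed between genotypes beside the members. Of 23 tested S phase and G2/M genes 23 were lower with a median of -0.60, and the summed signal of the 24 listed genes was 110 to 124 on knockout and 158 to 184 on control arrays, on a scale where the 75th percentile is 1. *Aurkb* alone was well above background on no array. The summed signal of 5 plasma cell markers was 26.4 to 37.2 against 44.5 to 53.7, with *Tnfrsf17* at background. Most of that sum is *Xbp1*, which other cells express too and which differed by -0.52, while *Igj*, the joining chain of secreted antibodies, differed by -1.92, both without overlap. T cell markers summed to 13.5 to 15.9 against 8.99 to 14.8 (8 genes), macrophage markers to 75.4 to 94.7 against 85.8 to 115 (9 genes), granulocyte and mast cell markers to 0.96 to 1.94 against 0.96 to 4.44 (8 genes) and NK cell markers to 0.71 to 1.09 against 0.58 to 0.75 (6 genes), all with overlap. Of the B cell and B1a markers *Itgam*, *Bhlhe41* and *Cd79b* lay above the controls on every knockout array, by 0.79, 0.55 and 0.28, and *Cd9* lay below by 0.48 on the log2 scale. The arrays of *Cd79a*, *Ms4a1*, *Cd5*, *Ptpn22*, *Spn* and *Zbtb32* overlapped. Of the other cell types, 8 of 8 tested macrophage markers were lower with overlap, *Lyz2* with a log2 difference of -1.08, and the macrophage sum rests largely on *Icam2*. Of 6 tested T cell markers 5 were higher, and *Cd3e* alone lay above the controls on every knockout array, by 0.60. The largest T cell marker difference was 1.41, with overlap, and it met the study's thresholds of 2-fold and unadjusted p. *Ncr1*, *Klrb1c* and *Klrd1*, which define NK cells, were at background on all arrays. The part of these groups in the difference of the members was not tested, and in bulk RNA fewer cells of a type and less RNA per cell cannot be told apart.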

How the data were processed

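Total RNA of sorted PC B1a cells, 3 samples per genotype with 1 array each, was measured on 1-colour Agilent arrays. The authors deposited spot intensity as given by Agilent Feature Extraction 10.7.1.1, with background subtracted and without scaling between arrays, beside a log2 table whose sorted columns differ by at most 0.000545, that is, quantile normalized. Its columns correlated with the scanner log2 signals at 0.999993 or more. Probe positions in the files are in mm9.

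From the intensities, log2 minus the 75th percentile of the 59305 non-control spots was taken, outlier spots (163 to 251 per array) were left out and spots of a probe averaged. No spot was saturated. A gene was represented by its brightest probe and tested where Feature Extraction marked that probe well above background on each of the 3 arrays of 1 genotype and where it was measured on at least 2 of each. The genotypes were tested by limma 3.58.1 (lmFit, eBayes; R 4.3.3), two-sided and without covariates, with Benjamini-Hochberg adjustment over 18235 genes at 0.05. Nothing says that the samples of a genotype came from separate sorts, so p-values measure the spread between these samples. The script was tested on simulated data. The members and lists were chosen with earlier results of these data known. Of the marker lists, 1 gene is not reported here.

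Genes named are the 8 largest decreases and increases without overlap that were well above background on all arrays, genes chosen by role, the 3 brightest, dimmest and least changed tested members, and those whose probes disagree in sign. Promoters and motifs use 27025 RefSeq symbols of GRCm38.p6, each at its first listed start. Alternatives were quantile normalization, normexp (offset 50) with either scaling, scaling on detected probes, the deposited values, dropping the filter or asking it of all 6 arrays, keeping outlier spots, averaging probes, eBayes with trend and robust estimation, the replicate block, and each array left out.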

Additional observations from a re-analysis of the deposited data

How the results depend on the processing

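The median of the members stayed below 0 under all 17 alternatives and most of them stayed lower, while counts and size depended on scaling. The median was -0.092 with quantile normalization, -0.517 with normexp and the 75th percentile, -0.089 with normexp and quantile, -0.167 when scaled on detected probes and -0.11 in the deposited values. Members without overlap numbered 15, 15, 26 and 15 with quantile normalization, normexp and quantile, scaling on detected probes and the deposited values, against 42; those below were 17.3%, 17.3%, 32% and 17.3% of members, beside 16.8%, 16.9%, 15.2% and 17.7% of all genes. An unadjusted limma p under 0.05 was found for 5, 59, 3 and 6 members with quantile normalization, normexp and the 75th percentile, scaling on detected probes and the deposited values, for 4 without a filter on dim probes and for 23 with trend and robust estimation, against 12; over all genes the share was 20.2%, 51.0%, 23.7%, 20.3%, 36.6% and 27.8% in that order, and the members' 6.67%, 78.7%, 4%, 8%, 5.26% and 30.7%, where the values of the report gave 25.2% of all genes and 16% of members in either direction. An adjusted p under 0.05 was found for 41 members with normexp and the 75th percentile, against 0, and 6469 of all genes then passed. Without the filter, 1 member passed the 2-fold thresholds, *Mrpl21*, which was not above background. The cause was not tested.

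Leaving out each array in turn gave a median of -0.318 to -0.224, 70 to 73 members lower, 43 to 57 without overlap and 2 to 19 with an unadjusted limma p under 0.05; the count was 19 without knockout 3, 7 without knockout 2, 2 without control 3 and 5 without any 1 of the other 3 arrays. Over all genes 13.5% to 30.005% then had such a p, against 2.67% to 25.3% of members, and 23.5% to 32.3% lay below without overlap, against 56% to 74.7% of members. No member then had an adjusted p under 0.05. Same-numbered arrays correlated at 0.19, 0.06 and 0.09 in their deviations, and 5 of the 6 arrays correlated best with their own number, a hint from the data and not from the design. With the replicate block the median was -0.262, 42 members were without overlap and 15 (20%) had an unadjusted limma p under 0.05, against 28.5% of all genes.

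Of the 73 lower members, 56 were lower under every alternative other than leaving out an array and 68 whichever array was left out. Among the 44 named genes, direction turned as follows. With quantile normalization *Mrpl17* was 0.094, *Mrpl2* 0.074, *Mrpl27* 0.0041, *Mrpl45* 0.11, *Mrpl55* 0.017 and *Mrps36* 0.041. With normexp and quantile they were 0.079, 0.078, 0.025, 0.14, 0.0048 and 0.051 in that order. In the deposited values *Mrpl17* was 0.078, *Mrpl2* 0.055, *Mrpl45* 0.098, *Mrpl55* 0.0042 and *Mrps36* 0.030. Scaled on detected probes *Mrpl17* was 0.032 and *Mrpl45* 0.018. With normexp and the 75th percentile *Mrpl35* was 0.017 and *Mrps34* -0.22. With the mean of probes *Mrpl41* was 0.081 and *Mrpl47* 0.023. With each array left out in turn, *Mrpl45* lay between -0.19 and 0.014 (without knockout 2) and *Mrpl17* between -0.15 and 0.0034 (without knockout 3).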

Other observations

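Of the genes that start head to head with a member within 1000 bases, 20 that are no member were found by symbol among the tested genes. Of these 20, 16 were lower in knockout samples. Neighbours that the arrays carry under another symbol were not matched. Of all tested genes 60.2% were lower, and of those in the 1-unit bins of mean signal from 2 to 6 between 79.4% and 81.6%. *Fau*, which starts 192 bases from *Mrpl49* and encodes a cytoplasmic ribosomal protein fused to a ubiquitin-like domain, was 0.95 higher where *Mrpl49* was 0.39 lower (limma log2 differences -0.39 and 0.95). *Fau* was read under the 75th percentile only. The median of the cytoplasmic ribosomal proteins was 0.41 under that scaling and -0.03 with quantile normalization. *Ndufb5*, a complex I subunit that starts 308 bases from *Mrpl47*, differed by -0.33, and *Hira*, a histone chaperone 113 bases from *Mrpl40*, by -0.15. These pairs were chosen after their values were seen and have no test.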
